A study of Mus musculus with 2 samples.

Results

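The genes described here are the 50 protein-coding mouse genes whose symbols begin with Psma, Psmb, Psmc, Psmd, Psme, Psmf or Psmg and a number, with pseudogenes left out. They were found by name among 43346 genes with Ensembl identifiers, of which 21474 were protein-coding. By role, 14 encode the standard 20S core, 17 the 19S cap and 3 the inducible catalytic subunits of the immunoproteasome. A further 5 encode other activators of the core or a copy of one, 7 encode assembly chaperones, 1 encodes the inhibitor Psmf1, and Psma8 and Psmb11 encode tissue-specific core subunits. Psmc3ip matched the name rule, but it encodes a recombination factor named for binding Psmc3 and no subunit.

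RNA was measured in the granule layer of the cerebellum, the layer filled by small excitatory granule neurons. There was 1 group, and it held 2 areas cut out by laser capture, numbered biological replicates 1 and 2. Both are labelled adult male wild-type tissue aged 8 months, of strain B6NCrl in one field and C57Bl6 in another, with 18000 square microns of tissue and 50 cells as the stated starting quantity. Total RNA was made into libraries by Smart-seq, which copies and amplifies full-length polyadenylated transcripts. The labels call the assay single cell sequencing, although each library holds an area. The areas share a donor label, and whether they came from the same animal is not stated. The SD between them (n = 2) may therefore be technical, and no contrast between conditions exists.

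The proteasome is the barrel-shaped protease that degrades proteins tagged with ubiquitin. Its 20S core is a stack of alpha and beta rings with the active sites inside, and its 19S cap binds, unfolds and feeds in the substrate through a ring of ATPases. In immune cells and under interferon, inducible beta subunits take the place of the standard catalytic ones and alter the peptides cut for display on class I molecules. Neurons rely on the proteasome for protein turnover at synapses.

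The libraries held 19939370 expected counts in replicate 2 and 20532709 in replicate 1. The proteasome genes took 0.638% of the gene counts in replicate 2 and 0.604% in replicate 1. All 6 granule neuron markers were detected, with a summed level of 2768 TPM (transcripts per 1e6) in replicate 2 and 2504 TPM in replicate 1. All 5 oligodendrocyte markers were detected too, with 637 TPM in replicate 2 and 522 TPM in replicate 1. So were all 5 markers of astrocytes and Bergmann glia, with 449 TPM in replicate 2 and 488 TPM in replicate 1. Red blood cell markers set replicate 1 apart, with 390 TPM in replicate 2 and 5040 TPM in replicate 1. Detection required 1 TPM or more together with 5 or more expected counts, in both libraries.

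The catalytic subunits carry the sharpest contrast among the members, so their sequences are given first. Psmb5, Psmb6 and Psmb7 hold the standard active sites, each with a threonine that becomes the first residue once a leader peptide is cut off. Psmb8, Psmb9 and Psmb10 replace them in that order. Each line below gives 30 coding bases, 5′ to 3′, from the GENCODE M21 transcripts on GRCm38, with the codon of the catalytic threonine in capitals.
Psmb8: cacggcACAaccacactcgccttcaagttc
Psmb5: cacggaACCaccaccctggccttcaagttt
Psmb9: accgggACAaccatcatggcagtggagttt
Psmb6: acagggACCacgatcatggctgtgcagttt
Psmb10: accgggACTaccatcgcggggcttgtgttc
Psmb7: actggcACTaccatcgcgggggtggtgtat
The threonine is at codon 73 in Psmb8, 60 in Psmb5, 21 in Psmb9, 34 in Psmb6, 40 in Psmb10 and 44 in Psmb7. The stretches of Psmb8 (chr17:34199296-34199325, plus strand), Psmb10 (chr8:105937682-105937711, minus strand) and Psmb7 (chr2:38643361-38643390, minus strand) lie in exon 2. Those of Psmb5 (chr14:54616819-54617820, minus strand), Psmb9 (chr17:34185774-34187255, minus strand) and Psmb6 (chr11:70525490-70525908, plus strand) join exons 1 and 2, so these coordinates include an intron. Within each replacement pair, 25 of 30 bases matched for Psmb8 and Psmb5, 25 for Psmb9 and Psmb6, and 24 for Psmb10 and Psmb7. Over the aligned coding sequence, identity was 67.4%, 66.2% and 63.3% for those pairs. The 12 other pairings of these 6 genes ranged from 54.7% to 62.5%. The deposited posterior SD of the count, a measure of how uncertain the sharing of reads between like sequences is, was at most 2.93% of the count for the catalytic genes in either library.

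Of the 50 genes, 46 were detected in both libraries. The exceptions were the inducible Psmb9, the activator copy Psme2b, the testis subunit Psma8 and the thymus subunit Psmb11. Among all protein-coding genes, 50.4% were detected. The summed level of the proteasome genes was 6944 TPM in replicate 2 and 6550 TPM in replicate 1. In a captured area, fewer cells of a type and less RNA per cell cannot be told apart, so a level here is that of the tissue. The core genes gave 64.1% ± 0.743 of that sum, the cap genes 29.1% ± 0.339, the assembly chaperones 3.71% ± 0.299, the activators 2.37% ± 0.0144 and the inducible subunits 0.281% ± 0.0153 (SD, n = 2).

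**Figure D1:**
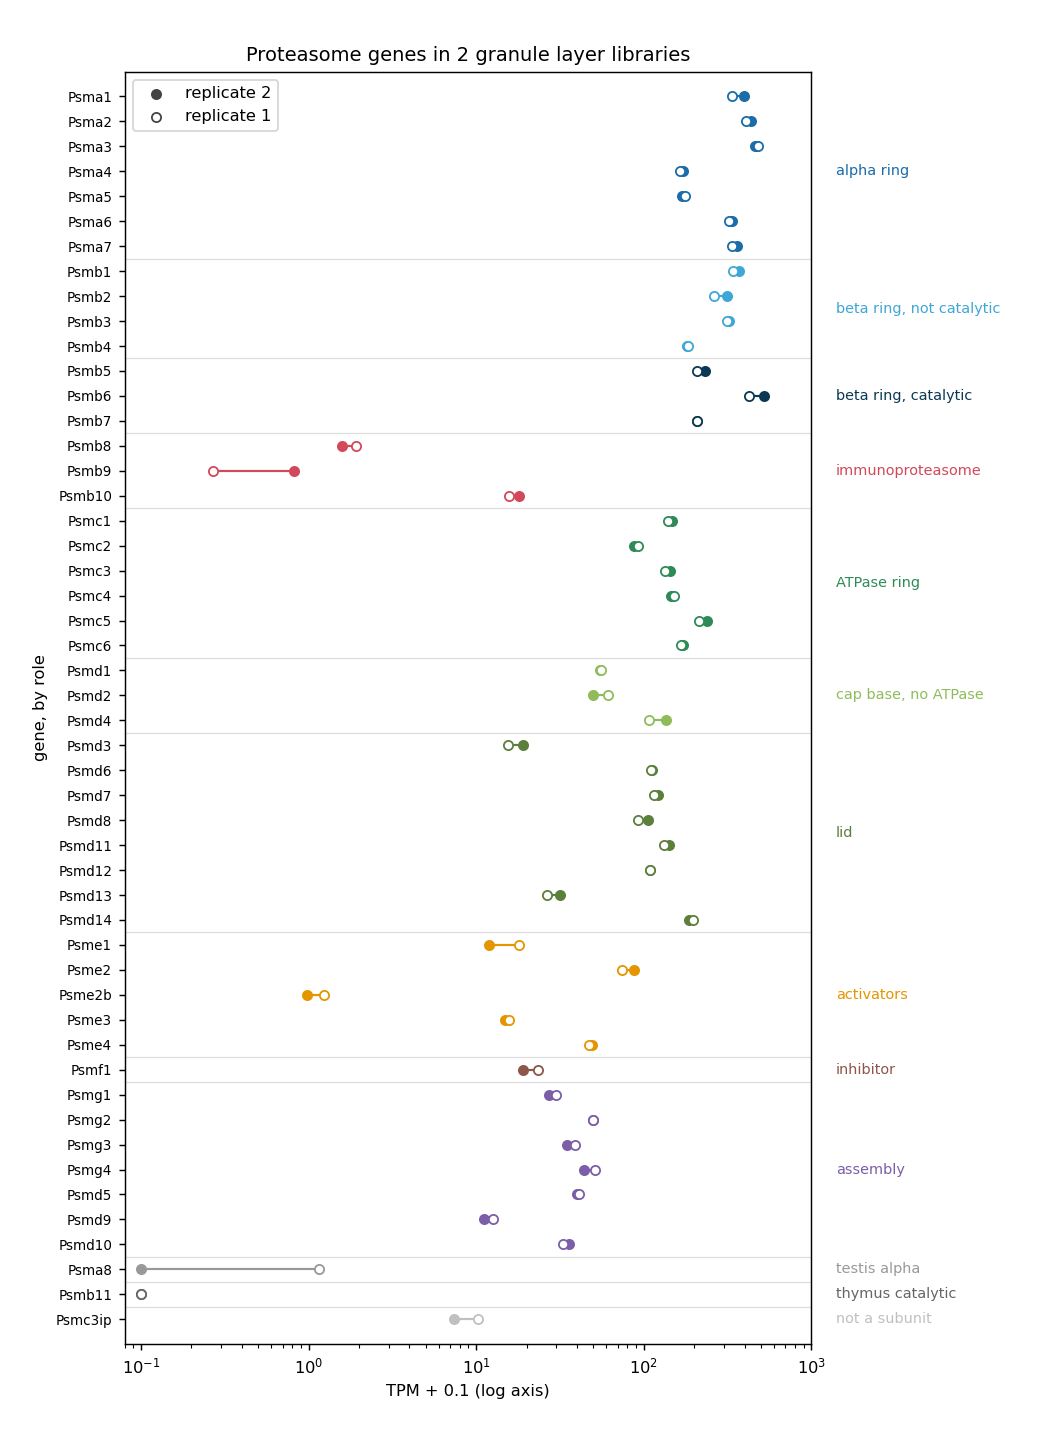
Level of each of the 50 proteasome genes by role, as TPM + 0.1 on a log axis, with replicate 2 filled and replicate 1 open. Core genes lie between 164 and 524 TPM, the lid genes Psmd3 and Psmd13 lie below the other cap genes, and the inducible Psmb8 and Psmb9 lie at or below 1.81 TPM.

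The 20S core was abundant in both libraries. Its 14 genes had a median of 323 TPM and ranged from 168 to 474 TPM as means of both libraries, within a factor of 2.82. The median of all protein-coding genes was 1.42 TPM, and that of detected ones was 14.3 TPM. All 14 core genes lay above the 95th percentile of protein-coding genes, as did 23 of the 50 members.

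The alpha ring forms the gated entrance of the core. Psma3 was its highest gene, with 463 TPM in replicate 2 and 484 TPM in replicate 1. Psma4 was its lowest, with 172 TPM in replicate 2 and 164 TPM in replicate 1, and Psma5 stood beside it at 173 ± 5.04 TPM. Psma1, Psma2, Psma6 and Psma7 lay between 329 and 421 TPM. By whole-gene level the ring thus split into 5 higher genes and a lower pair, Psma4 and Psma5, whose libraries did not overlap those of the others. On protein-coding transcripts alone this split did not hold for Psma3, which was at 88.5 ± 11.5 TPM, below Psma4 at 166 ± 4.81 TPM and Psma5 at 173 ± 5.04 TPM.

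In the beta ring, Psmb1 to Psmb4 line the chamber without a mature active site. Psmb1 was the highest of them, with 373 TPM in replicate 2 and 341 TPM in replicate 1. Psmb4 was the lowest, with 181 TPM in replicate 2 and 185 TPM in replicate 1. Psmb2 was at 288 ± 34.7 TPM and Psmb3 at 318 ± 5.25 TPM. The ratio of the alpha ring median to the beta ring median was 1.22 ± 0.0798.

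Psmb6, the caspase-like subunit, had the highest mean of all 50 genes at 474 ± 70.5 TPM, which differed from that of Psma3 (473 ± 14.8 TPM) by less than the spread between libraries. It had 524 TPM and 6037 counts in replicate 2, against 424 TPM and 5035 counts in replicate 1. Psmb5, the chymotrypsin-like subunit, had 233 TPM in replicate 2 and 207 TPM in replicate 1. Psmb7, the trypsin-like subunit, had 209.0 TPM in replicate 2 and 208.3 TPM in replicate 1. Psmb6 was thus above both of its catalytic neighbours in each library, although the assembled core holds the same number of each.

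The inducible subunits were far below their constitutive partners. Psmb8, partner of Psmb5, had 1.49 TPM and 24.7 expected counts in replicate 2, and 1.81 TPM and 30 counts in replicate 1. Psmb9, partner of Psmb6, had 0.72 TPM and 15 counts in replicate 2, and 0.17 TPM and 1 count in replicate 1. Psmb10, partner of Psmb7, had 18.04 TPM and 352 counts in replicate 2, and 15.7 TPM and 315 counts in replicate 1. In every pair and each library the inducible gene was the lower, and Psmb10 was the highest inducible gene in both.

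As a share of each pair's TPM, Psmb8 made up 0.752% ± 0.163, Psmb9 0.0886% ± 0.0687 and Psmb10 7.48% ± 0.663. Together the 3 inducible genes made up 2.05% of the catalytic TPM in replicate 2 and 2.06% in replicate 1. On counts, the Psmb8 share was 0.829% in replicate 2 (exact Clopper-Pearson 95% interval 0.537 to 1.22%) and 1.08% in replicate 1 (0.733 to 1.54%). These intervals overlap. The Psmb9 share was 0.248% in replicate 2 (0.139 to 0.408%) and 0.0199% in replicate 1 (0.000503 to 0.111%), and those intervals do not overlap. The Psmb10 share was 9.57% in replicate 2 (8.64 to 10.6%) and 8.25% in replicate 1 (7.40 to 9.17%). Reads were amplified before counting, so these intervals cover counting error only. The reads of Psmb9 were assigned to transcript Psmb9-204 of 1351 bases in replicate 2 and to Psmb9-202 of 433 bases in replicate 1, so its TPM values rest on different lengths.

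**Figure D2:**
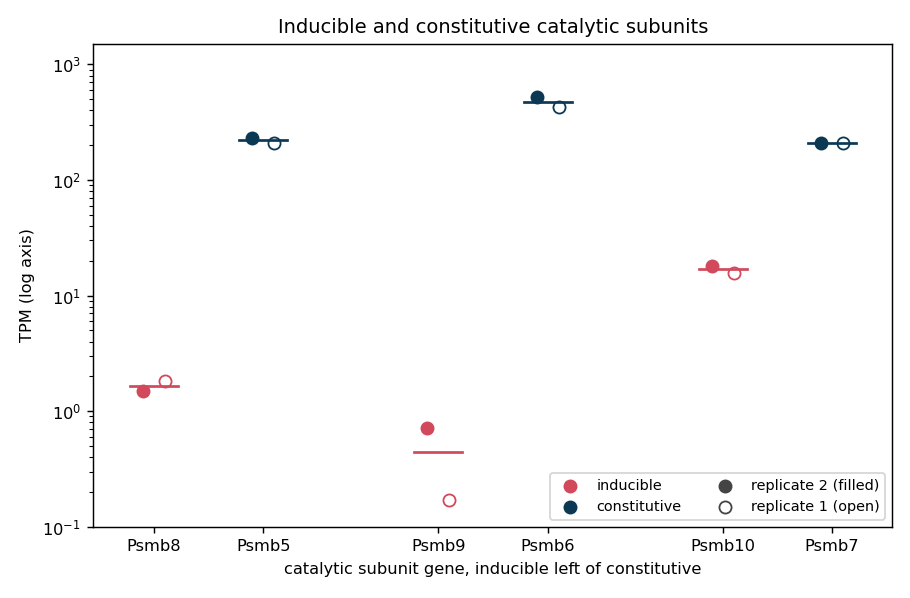
Level of each inducible catalytic gene left of its constitutive partner, in TPM on a log axis, with replicate 2 filled, replicate 1 open and a line at their mean. Psmb8 and Psmb9 lie at or below 1.81 TPM, and Psmb10 lies 11.6-fold below Psmb7 in replicate 2 and 13.3-fold below it in replicate 1.

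Genes that act with the immunoproteasome were also described. Psmb8 (chr17:34197721-34201454) and Psmb9 (chr17:34181987-34187764) lie close together on chromosome 17, whereas Psmb10 is on chromosome 8. The peptide transporter genes Tap1 and Tap2 were below 1 TPM, with 0 and 0.22 TPM in replicate 2 and 0.12 and 0.71 TPM in replicate 1. The class I transactivator Nlrc5 had 0.19 TPM in replicate 2 and was listed at 0 in replicate 1. Of the class I antigen path list, 4 of 7 genes were detected, with the light chain B2m at 200 ± 10.4 TPM. Of its heavy chains, H2-D1 was at 37.4 ± 3.90 TPM, and H2-K1 had 1.61 TPM in replicate 2 and 3.34 TPM in replicate 1. The interferon regulatory factor gene Irf1 had 0.03 TPM in replicate 2 and 1.33 TPM in replicate 1.

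Microglia, which can express inducible subunits, were represented by 9 of 10 detected markers, with summed levels of 109 TPM in replicate 2 and 139 TPM in replicate 1. All 6 endothelial markers were detected, at 193 TPM in replicate 2 and 244 TPM in replicate 1. None of the 5 T and B lymphocyte markers was detected, with 0.18 TPM in replicate 2 and 0.63 TPM in replicate 1 in sum and Cd3g at 0 counts in both. The part of these cells in the levels of Psmb8, Psmb9 and Psmb10 was not tested.

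The forms of the core known from other organs were at or near 0. Psmb11, the thymus form of the catalytic subunit, had 0 counts in both libraries, which allows up to 3 counts, or 0.156 per 1e6 gene counts in replicate 2 and 0.150 in replicate 1. It lies at chr14:54621433-54629556, on the same chromosome as Psmb5 at chr14:54614119-54618022. Psma8, the testis form of an alpha subunit, had 0 counts in replicate 2 and 29 counts, or 1.06 TPM, in replicate 1.

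The 19S cap had a lower and wider range than the core. Its 17 genes had a median of 118 TPM and ranged from 17.2 to 227 TPM. The ratio of the core median to the cap median was 2.79 ± 0.107. Core transcripts were also shorter, with a median length of 978 bases against 1404 bases for the cap, and across the 31 genes of the core and cap, measured in the same libraries, TPM and length had a Spearman rho of -0.71. TPM is itself divided by length, and the mean count, which is not, had a rho of -0.36 with length. The part of length in the difference between core and cap was not tested.

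The ATPase ring unfolds substrates, and its 6 genes lay within a factor of 2.53. Psmc5 was the highest, with 240.0 TPM in replicate 2 and 215 TPM in replicate 1. Psmc2 was the lowest, with 87.9 TPM in replicate 2 and 92.1 TPM in replicate 1. The other four lay between 138 and 169 TPM. The core median was 2.21 ± 0.0461 times the median of this ring.

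Of the base subunits without ATPase activity, Psmd1 and Psmd2 are large scaffolds that bind ubiquitin-like domains, and Psmd4 is a ubiquitin receptor. Psmd4 was the highest, with 136 TPM in replicate 2 and 108 TPM in replicate 1. Psmd1 was the lowest by a small margin, with 54.9 TPM in replicate 2 and 55.5 TPM in replicate 1. Psmd2 had 49.8 TPM in replicate 2 and 61.2 TPM in replicate 1, so the order of the scaffolds differed between the libraries. The ubiquitin receptor Adrm1, which the name rule leaves out, was at 42.0 ± 2.75 TPM.

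The lid holds the deubiquitinase that removes the ubiquitin chain, Psmd14. It was the highest lid gene, with 186 TPM in replicate 2 and 196 TPM in replicate 1. Psmd6, Psmd7, Psmd8, Psmd11 and Psmd12, structural lid subunits, lay between 98.9 and 137 TPM. Psmd3 and Psmd13 stood well below them, although each is also a structural lid subunit.

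Psmd3 had 19.03 TPM and 653 counts in replicate 2, and 15.4 TPM and 546 counts in replicate 1. Psmd13 had 31.4 TPM and 419 counts in replicate 2, and 26.2 TPM and 424 counts in replicate 1. Neither gene's libraries overlapped those of any other lid gene. Psmd3, Psmd13, Psmd1 and Psmd2 were the 4 genes below a 2-fold margin under the median of the 31 core and cap genes, which was 169 TPM, while 21 of the 31 lay within 2-fold of it. The core median was 2.94 ± 0.0681 times the lid median. The small lid subunit Sem1, outside the name rule, was at 200.2 ± 7.68 TPM.

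**Figure D3:**
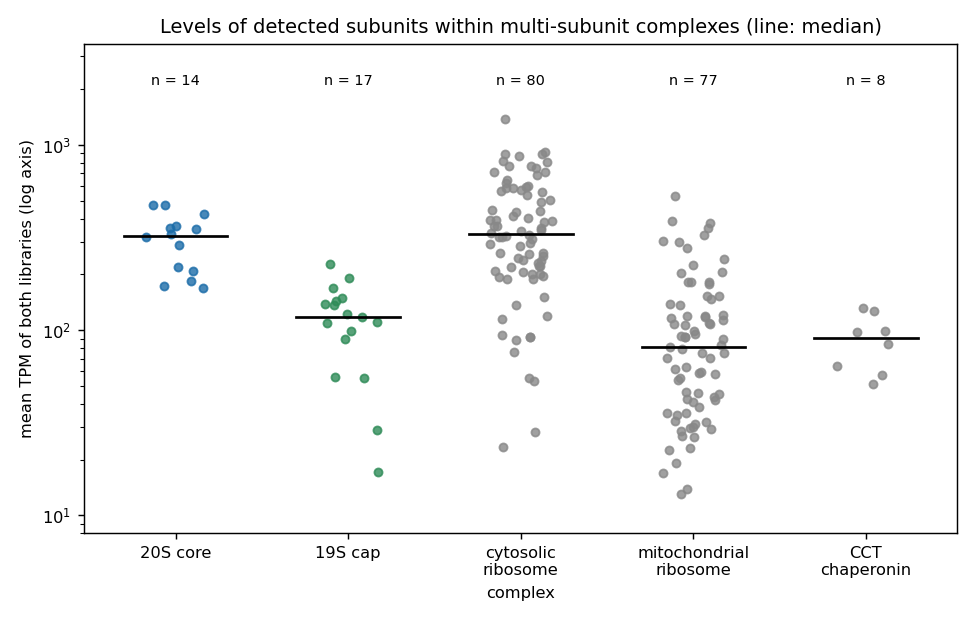
Mean TPM of both libraries for each detected subunit gene of 5 complexes on a log axis, with sideways scatter for display and a line at each median. The 14 core genes span 168 to 474 TPM, the 17 cap genes reach down to 17.2 TPM, and the ribosomal proteins span wider ranges than the core.

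The evenness within complexes was described beside other assemblies of many subunits. The SD of log2(TPM + 1) over members was 0.53 in the core and 0.96 in the cap. It was 0.51 for the 8 genes of the CCT chaperonin, 1.15 for 80 detected cytosolic ribosomal proteins and 1.23 for 77 mitochondrial ribosomal proteins. On protein-coding transcripts alone it was 0.80 in the core and 2.23 in CCT, where Cct6a has no transcript typed as coding, so the core and CCT were close on whole-gene levels and not on coding ones. Within the cap it was 0.43 in the ATPase ring and 1.18 in the lid. Without Psmd3 and Psmd13, which were set aside after their values were seen, the lid value was 0.34. Members are not replicates, so these values describe the genes and carry no test. The sets are also not alike. The ribosomal ones were taken by symbol and include paralogs such as Rpl7l1 at 28.1 TPM and Rpl22l1 at 643 TPM. The core set leaves out its inducible and tissue-specific forms. The part of this choice in the spreads was not tested.

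Activators other than the cap were lower than the core, which had a median 20.0 ± 3.11 times theirs. That median includes the undetected copy Psme2b, and with detected members only the activator median was 9.96% of the core median, against 5.06% with all 5. Psme1 and Psme2 encode the alpha and beta subunits of PA28, an interferon-induced ring that opens the core. Psme2 was the highest activator gene, with 87.7 TPM in replicate 2 and 74.0 TPM in replicate 1. Psme1 had 11.8 TPM in replicate 2 and 17.8 TPM in replicate 1, so the partners of this ring were unequal in both libraries. Psme3, the nuclear PA28 gamma, was at 15.2 ± 0.622 TPM, and Psme4, the large single-chain activator PA200, at 48.0 ± 1.02 TPM. Psme2b, a gene named for its likeness to Psme2, had 0.88 TPM and 10.9 counts in replicate 2, and 1.13 TPM and 14.3 counts in replicate 1. The posterior SD of its count was 19.4% of the count in replicate 2 and 15.6% in replicate 1, so its reads are uncertain. The inhibitor Psmf1 had 18.8 TPM in replicate 2 and 23.2 TPM in replicate 1.

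Assembly chaperones, which leave the finished particle, were all detected, with a median of 36.9 TPM. Psmg1 to Psmg4 guide the alpha ring. Psmg2 was the highest chaperone, with 50.0 TPM in replicate 2 and 49.9 TPM in replicate 1, and Psmg1, its partner, was at 28.5 ± 1.92 TPM. The pair of Psmg3 and Psmg4 was at 36.9 ± 2.98 and 47.7 ± 5.30 TPM. Psmd5, Psmd9 and Psmd10 guide the cap base, despite their names as cap subunits. Psmd9 was the lowest chaperone, with 11.1 TPM in replicate 2 and 12.5 TPM in replicate 1, against 40.6 ± 0.849 TPM for Psmd5 and 34.2 ± 2.15 TPM for Psmd10. The core median was 8.67 ± 0.751 times the chaperone median. Pomp, the maturation factor of the beta ring, lies outside the name rule and was at 543 ± 26.3 TPM, above every gene inside it. Psmc3ip had 7.28 TPM in replicate 2 and 10.1 TPM in replicate 1.

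Most listed genes that act with the proteasome were detected. All 6 ubiquitin genes were detected, led by the polyubiquitin gene Ubb at 2571 ± 200 TPM. The cap-bound deubiquitinases Usp14 and Uchl5 were at 135 ± 3.06 and 98.9 ± 3.17 TPM, and all 7 associated genes, all 6 shuttle genes and all 3 segregase genes were detected. Of the 7 regulators 5 were detected, and Nfe2l1, the factor that raises proteasome genes when proteasome activity is low, was at 25.9 ± 1.75 TPM, above its relative Nfe2l2 at 4.26 ± 0.969 TPM.

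Motifs of such regulators were looked up in promoter windows from RefSeq on GRCm38.p6, which run from 250 bases before to 50 after the start and were given for 42 of the 50 genes. The antioxidant-type motif TGACNNNGC, on either strand, was in 6 of the 42 genes (14.3%), beside 14.0% of 27025 genes in the table. CCAAT, on either strand, was in 35.7% of the proteasome genes and 41.1% of all genes. A core form of the interferon-stimulated response element, GAAA repeated after 2 free bases on either strand, was in 5 of 42 genes (11.9%), beside 3.99% of all genes, and in 0 of the 3 inducible genes. A match is only a match of letters. The windows of the highest and the lowest catalytic gene are printed, with TGACNNNGC in capitals for Psmb6 (chr11:70525107-70525406, plus strand) and CCAAT on the opposite strand in capitals for Psmb9 (chr17:34187281-34187580, minus strand).
Psmb9: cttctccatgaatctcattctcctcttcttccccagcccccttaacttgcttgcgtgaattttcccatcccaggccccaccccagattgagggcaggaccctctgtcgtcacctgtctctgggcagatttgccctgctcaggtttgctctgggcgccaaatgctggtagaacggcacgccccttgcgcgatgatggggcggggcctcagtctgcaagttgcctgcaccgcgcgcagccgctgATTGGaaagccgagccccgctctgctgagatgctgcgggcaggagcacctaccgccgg
Psmb6: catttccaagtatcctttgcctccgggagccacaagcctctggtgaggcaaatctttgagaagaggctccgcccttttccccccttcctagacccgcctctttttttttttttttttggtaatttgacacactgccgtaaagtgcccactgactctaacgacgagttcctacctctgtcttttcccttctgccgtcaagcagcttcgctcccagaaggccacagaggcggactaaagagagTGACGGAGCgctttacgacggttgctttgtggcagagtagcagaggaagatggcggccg
The Psmb6 match begins 9 bases before the start (position -9), and the Psmb9 match at position -8. In Psmb5 a TGACNNNGC match begins at position -47, and the window of Psmb8 held none of the 3 motifs.

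Most members were read from transcripts annotated as protein-coding. Among the 46 detected genes, the protein-coding share of TPM had a median of 96.1%, beside 98.2% over 10817 detected protein-coding genes. It was under 75% in 7 of the 46 (15.2%), beside 27.1% of all detected protein-coding genes. By the mean TPM share of both libraries, the leading transcript was protein-coding in 42 of the 46. The exceptions were Psma3, Psmb4, Psmd13 and Psmc3ip, each led on that share by a retained-intron transcript. For Psmd13 that lead came from replicate 1 alone: the retained-intron Psmd13-205 made up 21.1% in replicate 2 and 49.0% in replicate 1, and the protein-coding Psmd13-201 made up 25.3% in replicate 2 and 23.9% in replicate 1. By expected counts, a longer protein-coding transcript led in both libraries for Psma3, Psmb4 and Psmd13. The coding Psma3-202 (2846 bases) had 3524 counts in replicate 2 and 4267 in replicate 1. The retained-intron Psma3-203 (1027 bases) had 2918 in replicate 2 and 2970 in replicate 1.

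For Psma3, 17.4% of TPM in replicate 2 and 20.0% in replicate 1 came from protein-coding transcripts. So the highest alpha gene by the whole-gene level was the lowest of the ring by the TPM of its coding transcripts. Psmb4 had 40.7% coding in replicate 2 and 35.3% in replicate 1, a coding level of 69.5 ± 5.98 TPM. Psmd13 had 28.4% in replicate 2 and 36.9% in replicate 1, which lowered it to 9.30 ± 0.537 TPM and made it the lowest lid gene. Transcripts without a match in the names used here held 35.1% of the TPM of Psmd13 in replicate 2 and 1.60% in replicate 1. They are short, at 361 and 123 bases. In replicate 2 they had 25.6 and 2.06 expected counts, of 419 for the gene, so this TPM share rests on few reads. In the deubiquitinase Psmd14 and the activator Psme4, 30.9% and 49.3% of TPM came from other noncoding transcripts. Most of their counts were on a longer coding transcript. Psmd14-201 (1541 bases) held 3207 of 3642 counts in replicate 2 and 3217 of 3774 in replicate 1. Psme4-201 (6491 bases) held 2137 of 2369 counts in replicate 2 and 2092 of 2339 in replicate 1. Types were taken from an annotation later than the one used for counting, so a type may differ from that release.

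**Figure D4:**
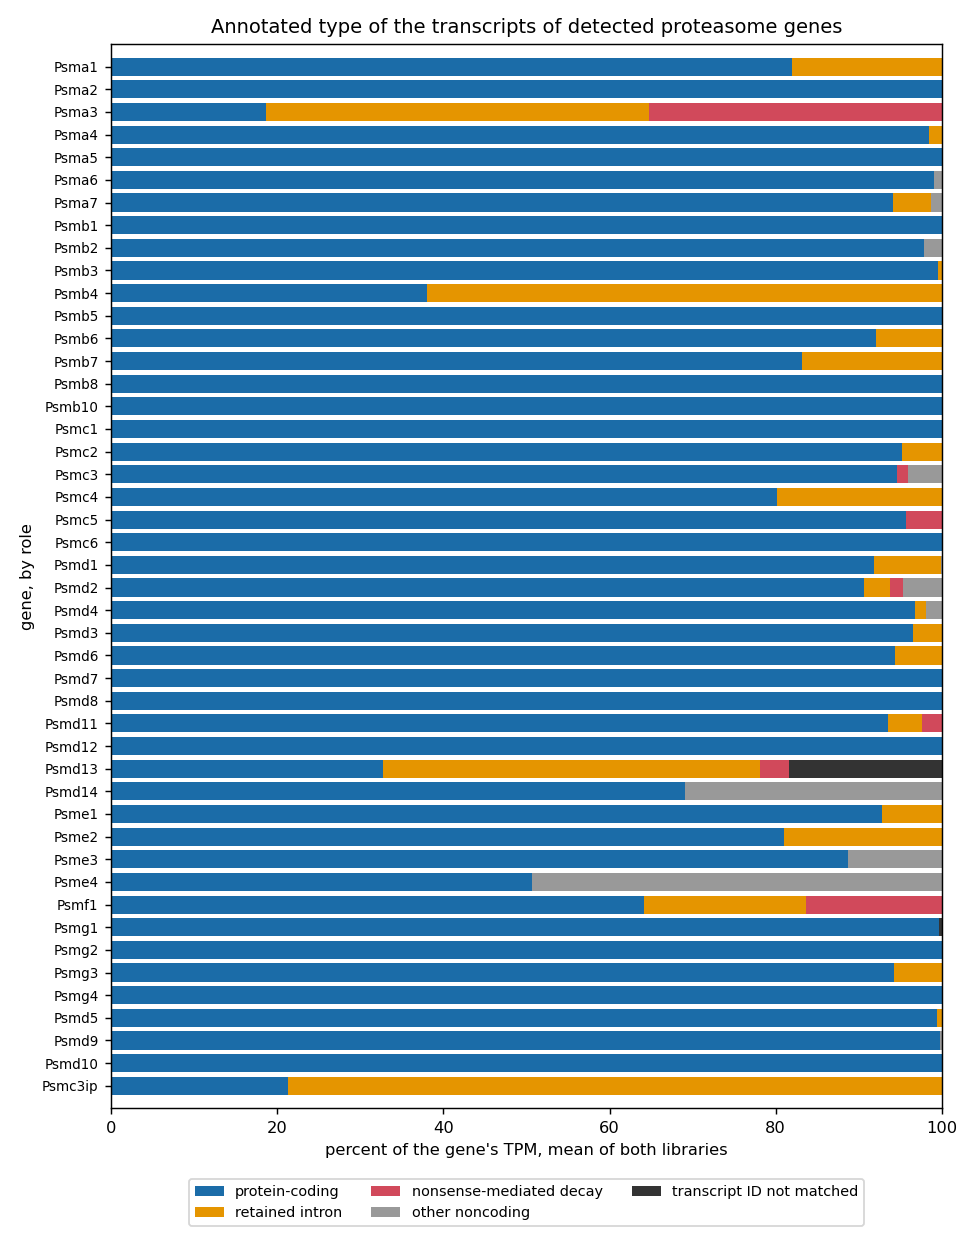
Share of each detected gene's TPM by annotated transcript type, as the mean percent of both libraries, with genes ordered by role. Most bars are largely protein-coding, while Psma3, Psmb4, Psmd13 and Psmc3ip are below 40%.

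In the cap receptor Psmd4, coding transcripts shifted between the libraries. Psmd4-202 made up 62.0% of the gene in replicate 2 and 47.7% in replicate 1. Psmd4-201 made up 34.0% in replicate 2 and 45.5% in replicate 1. Both are protein-coding, and the estimate divides shared reads between them.

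Differences between the 2 libraries were small for most members. An exact binomial test of each gene's counts against the library totals, two-sided and with Benjamini-Hochberg adjustment over 16636 genes with a summed count of at least 10, asks only whether these libraries differ beyond counting error. Of the 49 members tested, 23 (46.9%) differed at an adjusted p of at most 0.05, beside a background of 47.6% of all genes tested, so the members' share was near that of all genes. Of the 49 members tested, 16 were called higher in replicate 2 and 7 higher in replicate 1. Of the 16636 genes tested, 3937 (23.7%) were called higher in replicate 2 and 3986 (24.0%) higher in replicate 1. The nearness to all genes thus holds for both directions together and not for each alone. Among genes with a mean TPM of at least 10, the calls were 20 of 44 members and 52.8% of genes. The median absolute log2 ratio of TPM + 1 was 0.12 for members and 0.21 for all genes tested. Among those with a mean TPM of at least 10, it was 0.101 for members and 0.145 for all genes.

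By role, 9 of 14 core genes (64.3%) and 8 of 17 cap genes (47.1%) lay beyond counting error, beside 52.8% of all genes with a mean TPM of at least 10. Of these core and cap genes, all but Psma3 and Psmd2 were higher in replicate 2. Over all genes tested, 23.7% were called higher in replicate 2 and 24.0% higher in replicate 1. Shares by direction were not computed for genes with a mean TPM of at least 10. The median log2 ratio was 0.09 in the core and 0.07 in the cap, -0.08 in the activators and -0.13 in the chaperones. The widest gap among the core and cap genes was 1.26-fold, in Psmd4 (adjusted p = 1.29e-15 by the exact binomial test). Psmb6 had a log2 ratio of 0.30 (adjusted p = 5.78e-28 by the exact binomial test), and Psme1 had -0.56 (adjusted p = 9.26e-04 by the exact binomial test). Psma8 was the only member over 1.5-fold apart on TPM + 1, with 0 counts in replicate 2 and 29 in replicate 1 (adjusted p = 5.33e-08 by the exact binomial test), while 13.1% of all genes tested were over 1.5-fold apart. When counts were divided by 10, as if 10 reads came from each molecule, 1 member lay beyond counting error, Psmb6, beside 0.703% of genes.

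**Figure D5:**
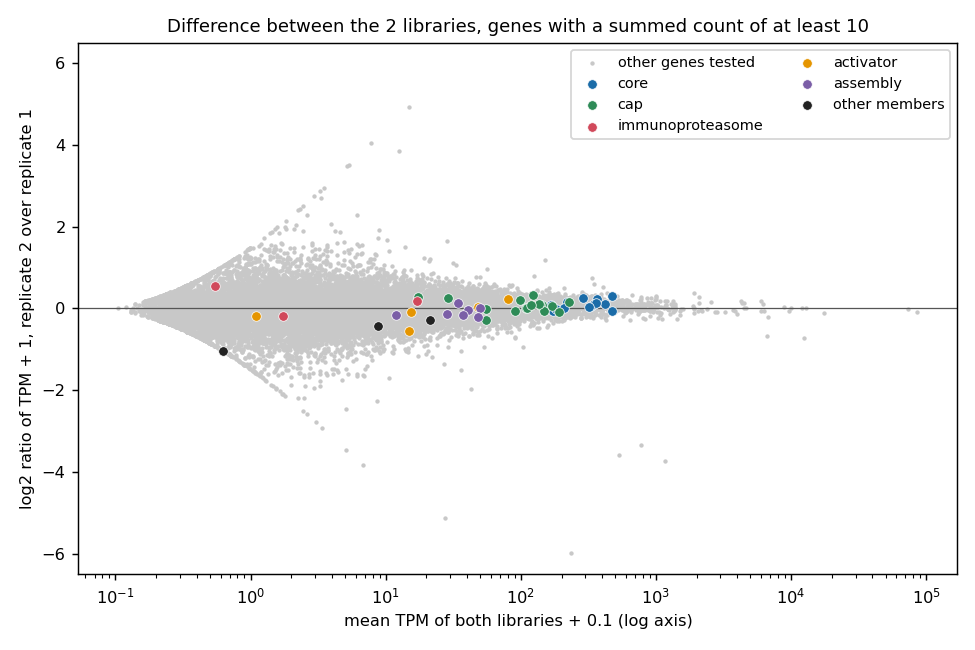
Log2 ratio of TPM + 1, replicate 2 over replicate 1, against mean TPM + 0.1 on a log axis, for the 16636 genes tested. The 49 tested members are coloured by role, and the other genes are grey. Members outside the core, cap, immunoproteasome, activator and assembly roles share 1 colour. The members lie between -0.56 and 0.56, except Psma8 at -1.04.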

How the data were processed

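Gene and transcript tables of 2 libraries were used. The expected counts deposited by the authors are model estimates and hold fractions where reads match several transcripts, per the file headers and values. Deposited TPM and deposited FPKM were normalised by the authors for length and library total. The deposited percent column gives a transcript's part of its gene, and the deposited score columns hold interval bounds on TPM and a posterior SD of the count. The deposited notes name mm10 as the build and GENCODE M4 as the annotation, while the aligner, counting program, filters and strand setting were not given in the sources used here.

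Names, types and coordinates came from GENCODE M21 on GRCm38 by identifier without version, which matched 42462 of 43346. The 97 control rows and 26248 rows with numeric identifiers were left out of gene totals (19261911 counts in replicate 2 and 19962271 in replicate 1). Counts were rounded for the binomial test, which is two-sided and exact and uses the Benjamini-Hochberg method. The test was checked on simulated counts that held counting error only, as the test assumes. That check does not cover other variation between real libraries. A count of 0 allows up to 3 counts. No count model was fitted: edgeR 4.0.16 (R 4.3.3) gave TMM totals for alternatives. Python 3.11.15 with pandas 2.3.3, scipy 1.17.1, matplotlib 3.10.9 and Biopython 1.88 did the rest.

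The members and lists were chosen with earlier results of these data known. Named were, per role, the highest and lowest member, all catalytic and undetected members, and those over 1.5-fold apart, with others by role. Psmd3, Psmd13, Psmd4-201 and Psmd4-202 were singled out after their values were seen. Paaf1 matched no row, and values of some listed genes are not reported here. Protein sequences were not used here, so the planned protein identity and C-terminal residues were replaced by coding identity.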

Additional observations from a re-analysis of the deposited data

How the results depend on the processing

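No paired analysis was possible because the libraries form 1 group. There were 180 alternative values over 34 results. Only the log2 ratios of the role classes between the libraries were scored for direction, and 0 of those values changed it. The other results could not be scored as reversed. Levels, shares and spreads were held to 1 SD between the libraries, log2 ratios to their counting interval and counts of genes to 1.5 times the reported count. By these rules 154 values stayed within and 26 did not, and many of the 26 moved by little, since the SD between 2 libraries can be small. The 154 include values from 1 library alone. Where the main value is the mean of both libraries, such a value always lies within 1 SD, so it says nothing about stability. Coding transcripts alone moved the most values, which follows from the transcripts they leave out. They put the cap median at 39.1% of the core median (main 35.9%), the core, cap, inducible, activator and assembly shares at 62.4%, 30.8%, 0.323%, 2.01% and 4.23%, the core at 2.10 times the ATPase ring and 2.70 times the lid, the Psmb10 share at 8.88%, and the SD of log2 levels at 0.80 in the core, 1.15 in the cap, 1.46 and 1.57 in cytosolic and mitochondrial ribosomal proteins and 2.23 in CCT, where Cct6a has no transcript typed as coding. Taken as a mean of log2(TPM + 1), the cap was at 33.9%, the inducible genes at 1.39% and the activators at 6.26% of the core, against medians of 35.9%, 0.511% and 5.06%. With detected members only, the inducible genes were at 2.86% and the activators at 9.96%. On counts without length, the Psmb8 share was 0.952% and the Psmb10 share 8.91%. At a TPM of at least 5, 1 inducible gene was detected, against 2. With all 83 cytosolic ribosomal proteins the SD was 1.92, and a pseudocount of 0.1 put the mitochondrial one at 1.25. Among coding transcripts only, the median leading share was 100%, against 91.2%. With counts divided by 10, 1 member lay beyond counting error, against 23. The limit to genes with a mean TPM of at least 10 was chosen after seeing the data. Depth limits Psmb8, Psmb9, Psme2b, Psma8 and Psmb11, each with at most 30 counts in a library.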
